A study of Mus musculus with 17 samples.

Results

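Satellite cells and myoblasts of mouse back skin were described in 8 single-cell RNA sequencing libraries of cells sorted for PDGFRb-Cre reporter fluorescence. A cell was taken as a member when it had at least 200 genes, at most 20% of its unique molecular identifiers (UMIs, one per captured RNA molecule) from mitochondrial genes, at least 2 UMIs in the sum of Pax7, Myf5 and Myod1, and no UMI of the leukocyte gene Ptprc or the endothelial gene Pecam1. The rule selected 251 of 30085 cells that passed the same cell filter, from 31972 deposited barcodes. A further 74 cells reached the sum of 2 but carried Ptprc or Pecam1 UMIs and were left out. Because the members were chosen on measured values, the levels of Pax7, Myf5 and Myod1 and the contrast of members with other skin cells are given as descriptions, with no test.

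SARAWT and SARATg mice were 8 weeks old, and both carried PDGFRb-Cre with the Z/EG reporter, which turns on green fluorescent protein (GFP) after recombination. SARATg mice also carried a cDNA of human ZFYVE9 (the protein SARA) under the CAG promoter at Rosa26, behind a stop cassette that Cre removes, so the transgene acts in any cell with present or past activity of the PDGFRb promoter, leukocytes included. Mice received subcutaneous bleomycin, a DNA-damaging agent that induces skin fibrosis, at 20 mg/kg 3 times a week for 2 weeks by the labels, or PBS by the same route, whereas the study's methods give daily injections. The groups were SARAWT PBS (3 libraries), SARAWT bleomycin (3), SARATg PBS (1) and SARATg bleomycin (1), and the number and sex of mice behind each library are not given in the sources used here. With 1 library per SARATg group, no effect of treatment within SARATg mice could be tested.

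Satellite cells are the stem cells of skeletal muscle and lie under the basal lamina of the fibre. The transcription factor Pax7 marks them at rest, Myf5 and Myod1 set the myogenic programme, and Myog drives exit from the cell cycle and differentiation before Mymk and Mymx fuse the cells into fibres. Mouse skin holds a thin sheet of skeletal muscle, the panniculus carnosus, below the dermal fat.

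Libraries differed in depth and in how well they matched their labels. The members' summed UMIs ran from 9542 in the library SARAWT PBS 2, which had only 2 members, to 1485008 in SARAWT bleomycin 3, so that 1 UMI was worth between 104.8 and 0.673 CPM (a gene's UMIs scaled to 1000000 UMIs of the members of a library). SARAWT PBS 1 and 2 and SARAWT bleomycin 1 and 2 were counted on a longer gene list than the other 4 libraries. Mouse Zfyve9 stood at 1011 CPM in the members labelled SARAWT PBS 3, near the 936 CPM of SARATg PBS and above the 236 CPM of SARATg bleomycin, against 16.4 to 26.9 CPM in the SARAWT bleomycin libraries. Human ZFYVE9, a row of the longer gene list only, had 96 UMIs in the members labelled SARAWT PBS 1, none in SARAWT PBS 2, and 17 and 24 UMIs in SARAWT bleomycin 1 and 2. Mouse Zfyve9 is thus not directly comparable between the lists, and among SARAWT bleomycin libraries only replicate 3 (26.9 CPM) shared the shorter list of SARAWT PBS 3. The libraries labelled SARAWT PBS 1 and SARAWT PBS 3 therefore went against their genotype label in these cells, their names below are those of the labels only, and some results are also given without one or both of them. Among the members, 18 had a barcode that also occurred in another skin library, and 4 of those, all in PBS libraries, had more UMIs in the other library. The 18 included 2 of 2 members in SARAWT PBS 2, 8 of 18 in SARAWT bleomycin 1 and 4 of 14 in SARAWT bleomycin 2. Of all barcodes in these libraries, 55.5, 17.6 and 22.1% were shared. In SARAWT PBS 2, 1 member (1636 UMIs) had its barcode at 96317 UMIs in SARAWT bleomycin 1.

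Several markers that the rule did not use were more common in members than in leukocytes and Pdgfra stromal cells. Des, the muscle intermediate filament gene, had a UMI in 226 of 251 members (90.0%), compared with 2.56% of leukocytes and 3.52% of stromal cells with Pdgfra UMIs. Among cells without Ptprc and Pecam1 UMIs, Des was also in 88.6% of those with a rule sum of 1 and 19.0% at a sum of 0. Des alone therefore does not tell satellite cells from other cells with muscle RNA. Asb5, an ankyrin-repeat gene of the satellite cell list, was found in 81.3% of members, Vcam1, an adhesion receptor of quiescent satellite cells, in 77.3%, and Cdh15, M-cadherin, in 72.5%. In leukocytes these shares were 0.551, 6.18 and 0.306%, and in Pdgfra stromal cells 0.749, 48.4 and 0.449%, so Vcam1 was also common in stromal cells. Integrin alpha 7 (Itga7) had UMIs in 60.6% of members, the FGF receptor gene Fgfr4 in 58.6%, and Chodl, a lectin-like gene of quiescent satellite cells, in 49.4%, against 14.8, 8.83 and 9.58% of stromal cells and 1.73, 0.306 and 0.26% of leukocytes. The median depth was 12100 UMIs in members, 9635 in leukocytes and 17861.5 in stromal cells, and after thinning to 1000 UMIs Des was found in 40.6% of members, 0.753% of leukocytes and 0.45% of stromal cells. Calcr, the calcitonin receptor that holds satellite cells at rest, was seen in only 6.37% of members. The 20 genes with the highest ratio of members to all other kept cells were led by Myog, Actc1, Myod1, Tnnt2, Myl4 and Asb5. Myod1, like Myf5 at rank 8, is a gene of the rule, so its place follows from the selection. UMIs of Myog, Actc1 and Tnnt2 were found in only 14.7, 7.57 and 14.3% of members. Myog stood at a mean of 596 CPM over the 6 libraries with at least 10 members against 3.34 CPM in other cells, and Asb5 at 365 against 3.35 CPM. Genes with wider expression, such as Mgp, a matrix calcification inhibitor, and Cdkn1c, a cell cycle inhibitor, were also among these 20.

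Cdh15 varied least of the 20 satellite cell markers over the 6 libraries with at least 10 members, with an SD of 0.0935 of its mean, and Itga7 came next at 0.218. Cdh15 stood at 176, 168, 161, 173, 136 and 179 CPM in SARAWT PBS 3, SARAWT bleomycin 1, 2 and 3, SARATg PBS and SARATg bleomycin, with a mean of 165 ± 15.5 CPM (SD, n = 6). Asb5 ranged from 272 to 522 CPM in the same libraries. Chodl had an SD of 0.982 of its mean and ranged from 16.4 CPM in SARAWT bleomycin 1 to 526.4 CPM in SARATg PBS, and was 321 CPM in the library labelled SARAWT PBS 3 and 77.0 to 134 CPM in the other bleomycin libraries. Neither Cdh15 (log2 change of 0.11, adjusted p = 0.868, edgeR) nor Chodl (-2.29, adjusted p = 0.143) passed the test of bleomycin against PBS described later.

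**Figure D1:**
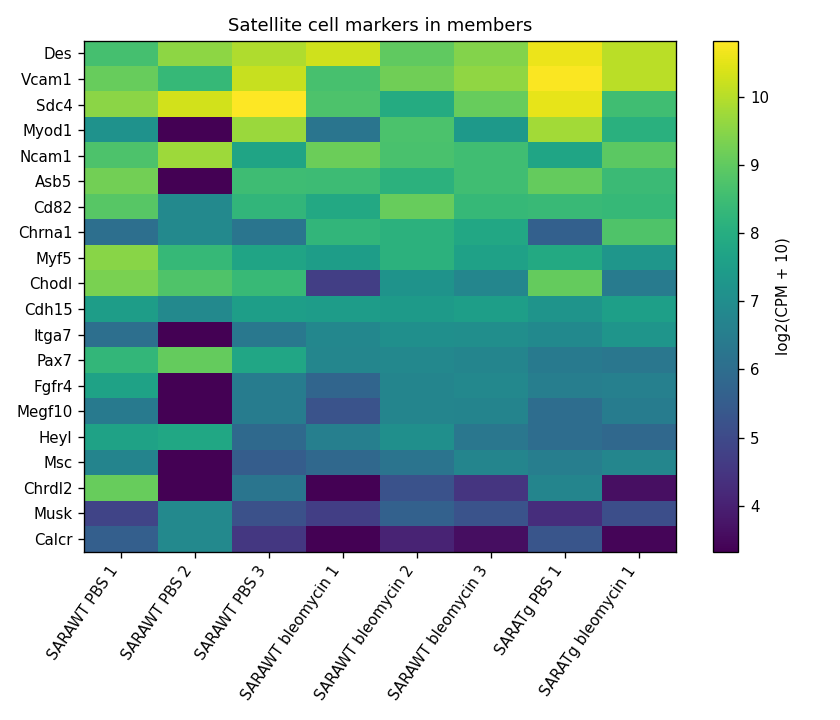
Levels of the 20 satellite cell markers in the members of each library, as log2(CPM + 10), with one column per library and genes ordered by their mean over the 6 libraries with at least 10 members. Cdh15 sits at a like level in those libraries (136 to 179 CPM), whereas Chodl spans 16.4 to 526.4 CPM; the columns SARAWT PBS 1 and 2 rest on 9 and 2 cells.

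Few members carried Pdgfrb, whose promoter drives the Cre of the sort. A Pdgfrb UMI was found in 15 of 251 members (5.98%), compared with 74.4% of Pdgfra stromal cells and 2.56% of leukocytes, whose RNA here serves as background. After each cell was thinned to 1000 UMIs the share was 0.402% in members, 0.395% in leukocytes and 12.8% in stromal cells, so Pdgfrb RNA in members was not detectable above the leukocyte background at this depth. The genes of other cell types were summed in members. The leukocyte and endothelial lists include Ptprc and Pecam1, which the rule set to 0, so low sums of these lists partly follow from the selection. The summed level of 12 leukocyte genes was 77.1 to 285 CPM per library (30669.5 CPM in pooled leukocytes), that of 10 endothelial genes 0 to 9.75 CPM, and that of 12 fibroblast genes 734 to 17313 CPM (95720 CPM in pooled stromal cells). Keratinocyte, Schwann cell, melanocyte and adipocyte lists summed to at most 104.8, 73.8, 104.8 and 209 CPM in any library. SARATg PBS held the highest of these fibroblast sums, and the next highest was SARAWT bleomycin 2 at 4739 CPM. The sum of 10 mural cell genes was 210 to 587 CPM in the PBS libraries and 1162 to 3683 CPM in the bleomycin libraries, above the 874 CPM of pooled stromal cells in the latter. Acta2 and Tagln, contractile genes of smooth muscle, made up 1129 to 3653 CPM of the sums with bleomycin, while the other 8 genes summed to 26.98 to 33.0 CPM with bleomycin and 0 to 63.4 CPM with PBS, and the mural genes Myh11 and Higd1b were at 0 in members.

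Pax7 had UMIs in 156 members, Myf5 in 164 and Myod1 in 125. Pax7 or Myf5 without Myod1 was seen in 126 members, Myod1 alone in 54 and both kinds in 71. In SARATg PBS, 20 of 30 members had Myod1 alone, against 6 of 36 in the library labelled SARAWT PBS 3 and 6 of 79 in SARAWT bleomycin 3. At the edge of the rule, 132 cells with a sum of 1 had Cdh15 UMIs in 13.6% and Acta1, skeletal actin, at 43224 CPM. The 44 members with a sum of exactly 2 had Cdh15 in 47.7% and Acta1 at 21026 CPM, and the 207 members with a sum of 3 or more had Cdh15 in 77.8% and Acta1 at 2119 CPM. Cells on both sides of the threshold thus held much fibre RNA, and the median UMI count was 4163, 9298.5 and 13581 in the same order.

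How often satellite cells and myoblasts were recovered after bleomycin was the first comparison. They made up 0.221, 0.256 and 0.777% of kept cells in SARAWT PBS 1, 2 and 3, and 0.835, 0.646 and 1.21% in SARAWT bleomycin 1, 2 and 3. Exact 95% binomial intervals, which cover counting error only, were widest for SARAWT PBS 2 (0.0310 to 0.922%). The mean share was 0.418 ± 0.311% with PBS and 0.896 ± 0.285% with bleomycin (SD, n = 3 each), a difference of 0.478 percentage points that did not pass the two-sided exact permutation test over libraries (p = 0.2, smallest possible 0.1). In SARATg mice the share was 0.658% (0.445 to 0.939%) with PBS and 1.22% (0.939 to 1.56%) with bleomycin, from 1 library each. Without the libraries labelled SARAWT PBS 1 and 3, 1 PBS library was left and the difference was 0.640 percentage points (exact p = 0.25, the smallest possible). When every cell was thinned to 1000 UMIs and 1 UMI of the 3 rule genes was required, the SARAWT difference shrank to 0.0856 percentage points (exact p = 0.7). Pdgfra stromal cells, by comparison, went from 5.75 ± 2.57% to 1.503 ± 0.762% of kept cells (exact p = 0.1), and a share of kept cells depends on what else each library held.

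Members of bleomycin-treated skin held more UMIs per cell than those of PBS-treated skin. Their median was 5527, 4803.5 and 7306.5 UMIs in SARAWT PBS 1, 2 and 3 and 5953 in SARATg PBS, compared with 23173.5, 14984.5 and 16097 UMIs in SARAWT bleomycin 1, 2 and 3 and 14947 in SARATg bleomycin. The groups did not overlap. Over both genotypes the mean of these medians was 5897.5 ± 1052 against 17300.5 ± 3952 UMIs (SD, n = 4 each), 2.93-fold higher with bleomycin (exact permutation of library labels, two-sided, p = 0.0286, which 70 assignments cannot go below). With the SARAWT libraries alone the exact p was 0.1, also the smallest possible. Without the libraries labelled SARAWT PBS 1 and 3 the means were 5378 and 17300.5 UMIs, 3.22-fold apart, with an exact p of 0.0667 that 2 against 4 libraries cannot go below. The median number of genes per cell went from 1898 ± 237 to 4031 ± 577 (exact p = 0.0286). Other cells of the same libraries did not pass this test. The median of all kept cells was 1.09-fold higher (exact p = 0.8), of leukocytes 1.148-fold (p = 0.571) and of Pdgfra stromal cells 1.46-fold (p = 0.4).

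The ratio of members' to all kept cells' median UMIs was 0.857, 3.78, 0.813 and 0.527 in SARAWT PBS 1, 2, 3 and SARATg PBS, and 3.22, 2.03, 2.47 and 1.57 in the bleomycin libraries. SARAWT PBS 2, with 2 members, overlapped the bleomycin libraries, and the ratio did not pass the test (exact p = 0.371). The difference in UMIs was 2.49-fold without the 4 members whose barcodes had more UMIs elsewhere and 2.94-fold without predicted doublets, each with exact p = 0.0286. The test was added after the values were seen, and the rule itself favours cells with more UMIs in every library. RNA per cell and capture efficiency cannot be told apart from UMI counts.

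**Figure D2:**
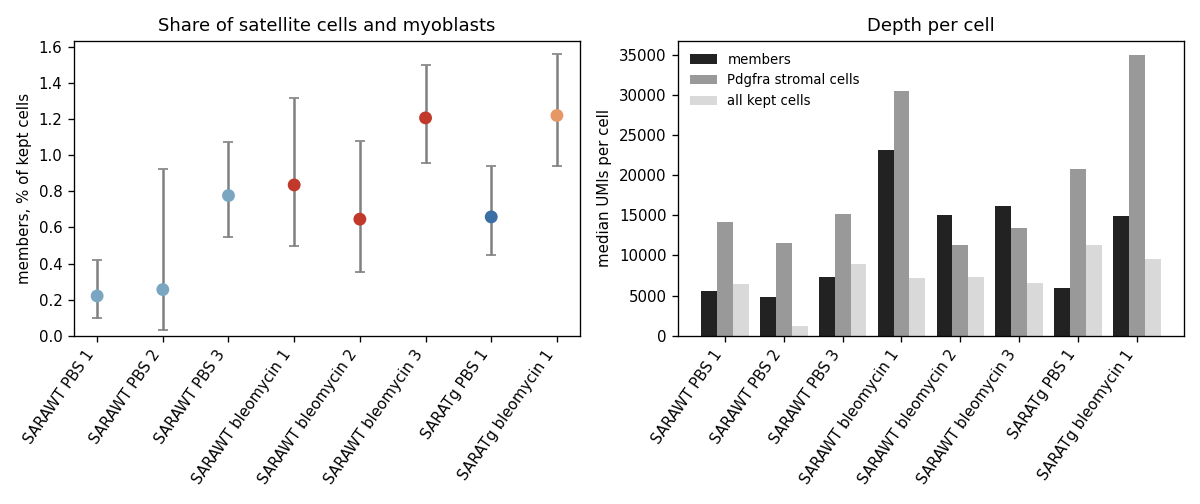
Left, members as a percentage of kept cells in each library, with exact 95% binomial intervals; right, median UMIs per cell of members, Pdgfra stromal cells and all kept cells. Shares overlap between treatments (0.221 to 0.777% against 0.646 to 1.22%), whereas the members' medians do not (4803.5 to 7306.5 against 14947 to 23173.5 UMIs).

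Members were divided by Myog and by myofibre RNA into committed cells, cells rich in fibre RNA and the rest. At least 2 Myog UMIs were found in 30 members, at least 1% of UMIs from 25 myofibre genes without such Myog in 22, and neither in 199. Of the 30 Myog cells 13 also reached the 1% of myofibre UMIs (up to 25.5%) and are not counted among the 22, so levels in Myog cells include fibre RNA. The 199 cells had Pax7 UMIs in 151, Cdh15 in 160, Vcam1 in 180, Notch3, a Notch receptor, in 158 and Heyl, a Notch target, in 92. In the 30 Myog cells, Myod1 was present in all 30, Mymk in 20, Mymx in 18 and Pax7 in only 4. Their Mymk level was 813 CPM, that of Actc1, cardiac actin of immature muscle, 3746 CPM, and that of Tnnt2, an early troponin T, 3222 CPM, against 0.313, 0.313 and 10.6 CPM in the 199 cells. Cdkn1c and the acetylcholine receptor gene Chrna1 were also high in Myog cells (3549 and 814 CPM, against 191 and 138 CPM).

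The 22 fibre-rich cells carried Acta1 at 60589 CPM, the muscle creatine kinase gene Ckm at 13580 CPM and Myh4, a fast myosin heavy chain, at 2857 CPM. Myod1 had UMIs in 21 of them, Des in 22 (6200 CPM), and Pax7, Cdh15, Vcam1 and Itga7 in 1 each. Most of these fibre-rich cells thus lacked the satellite cell markers other than Des and Myod1 given here. A median of 0.0733% of their UMIs were mitochondrial, compared with 3.39% in the 199 cells and 4.26% in Myog cells, and their median depth was 4830 UMIs. Only 5 members had a myofibre share between 0.5 and 2%, so few cells lay near the 1% limit. SARATg PBS held 10 of the 22 fibre-rich cells among its 30 members (33.3%, exact interval 17.3 to 52.8%), and the library labelled SARAWT PBS 3 held 3 of 36 (8.33%). These groups of cells were defined on the same counts, so no test was made between them.

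**Figure D3:**
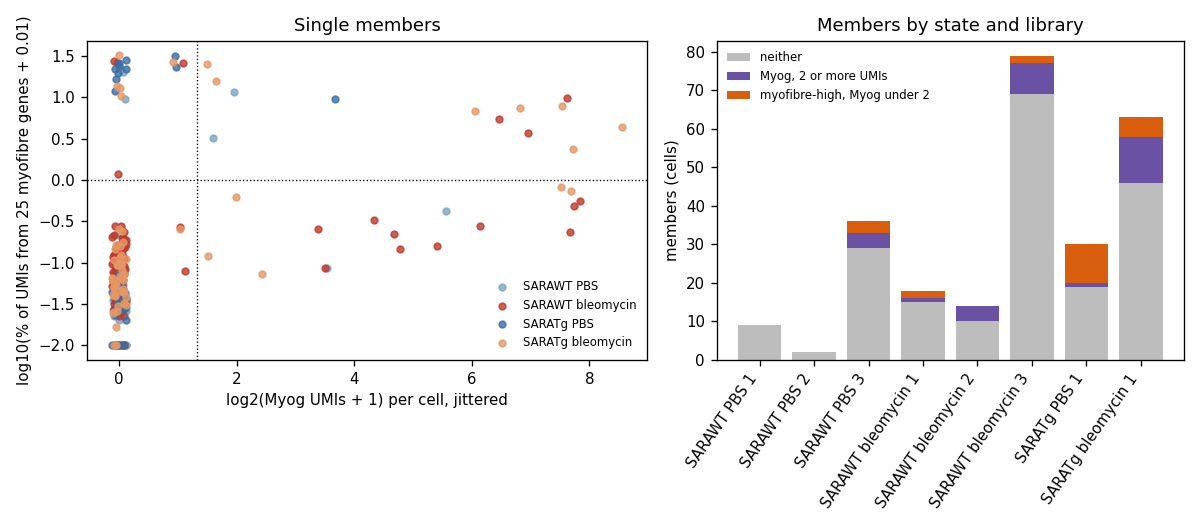
Left, each member by its Myog UMIs (log2 scale, jittered) and its share of UMIs from 25 myofibre genes (log10 scale), with dotted lines at 2 Myog UMIs and 1%; right, the number of members of each kind per library. Most members (199 of 251) lie below both lines, and 10 of the 22 fibre-rich cells, which exclude Myog cells over the 1% line, come from SARATg PBS.

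The sequence before the start of Myog, the gene with the highest ratio of members to other cells, is shown because MYOD1 and MYOG bind E-boxes. The 250 bases upstream of the RefSeq start (GRCm38.p6, chr1:134289754-134290003, + strand) are printed with each match to the E-box CANNTG in capitals. The motif is its own reverse complement in pattern, so 1 strand was searched.
Myog: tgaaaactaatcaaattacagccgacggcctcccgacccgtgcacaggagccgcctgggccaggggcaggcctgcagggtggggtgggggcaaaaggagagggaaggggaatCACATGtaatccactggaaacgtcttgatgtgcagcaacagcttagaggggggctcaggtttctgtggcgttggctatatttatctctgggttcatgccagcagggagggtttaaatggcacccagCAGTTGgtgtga
The window held 2 matches. At least as many occurred in 31.8% of 32851 windows of the same length, and 66.2% held at least 1, so the matches are common and are given as a description only.

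Commitment and proliferation were compared between treatments at equal depth. After thinning to 1000 UMIs, Myog was found in 2.78% of members labelled SARAWT PBS 3 and in 5.56, 21.4 and 8.86% of SARAWT bleomycin 1, 2 and 3, while the other SARAWT PBS libraries had too few members. The difference of 9.17 percentage points did not pass the exact permutation test (p = 0.5, smallest possible 0.25). Neither this comparison nor the next has a value without SARAWT PBS 3, its only PBS library. SARATg members had Myog in 6.90% with PBS and 12.7% with bleomycin. Unthinned, Myog had a UMI in 11.1% of members in SARAWT PBS 3 and in 11.1, 28.6 and 12.7% with bleomycin, and at least 2 UMIs in 11.1% and in 5.56, 28.6 and 10.1%, so that 2 of the 3 bleomycin libraries lay below SARAWT PBS 3 by the latter count. A UMI of the proliferation genes Mki67 or Top2a was found in 0% of members labelled SARAWT PBS 3 and in 5.56, 7.14 and 3.80% of the bleomycin libraries (difference of 5.50 percentage points, exact p = 0.25, the smallest possible). The 0 of 36 cells in SARAWT PBS 3 and 0 of 29 in SARATg PBS allow shares of up to 8.33 and 10.3% of cells with such a UMI at this depth, and do not limit the share of cells that express these genes. Thinning to 1000 UMIs lowered the share over all members from 13.1 to 2.81%. At 2000 UMIs, Myog was found in 8.57% of members in SARAWT PBS 3 and in 5.56, 21.4 and 8.86% in SARAWT bleomycin 1, 2 and 3. Mki67 or Top2a was then found in 2.86% and in 5.56, 0 and 5.06%, so both measures overlapped between treatments at that depth. SARATg PBS and bleomycin had 3.70 and 14.5% for Myog and 0 and 6.45% for Mki67 or Top2a. Unthinned, the same genes marked 13.9% of members in SARAWT PBS 3 and 22.2, 14.3 and 13.9% in the bleomycin libraries, and 0% and 17.5% in SARATg PBS and bleomycin.

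Gene expression was compared with edgeR on UMIs summed over the members of each library with at least 10 of them. SARAWT mice alone left 1 PBS library (PBS 3) against 3 bleomycin libraries, and 1 of 6940 genes passed an adjusted p of 0.05 (0.0144%), 0 higher (0%) and 1 lower. An unadjusted p under 0.05 was seen for 842 genes, and 56 were called by DESeq2. The gene that passed was Zfyve9 (log2 change of -5.68 ± 0.38 SE, adjusted p = 0.00149), which stood at 1011 CPM in PBS 3 and at 16.4, 16.8 and 26.9 CPM with bleomycin, and which was 133 CPM and 0 in the members of SARAWT PBS 1 and 2. Of the genes with the smallest p in each direction, Lgals1 (galectin-1) had 1229 CPM against 5092, 4018 and 3966 CPM (log2 change of 1.71 ± 0.29, edgeR adjusted p = 0.111), and the unfitted libraries SARAWT PBS 1 and 2 had 1199 and 1991 CPM, also below every bleomycin library. Ntf3, neurotrophin-3, had 149 CPM against 3.29, 6.71 and 10.8 CPM (-4.35 ± 0.54, adjusted p = 0.071), but 19.0 and 0 CPM in SARAWT PBS 1 and 2 and 0 CPM in SARATg PBS. Cxcl1, a neutrophil chemokine, had 5192 CPM against 1639, 1070 and 1187 CPM (-2.11 ± 0.29, adjusted p = 0.0797), while SARAWT PBS 1 had 1998 CPM and SARAWT PBS 2 had 104.8 CPM, below every bleomycin library. Every fitted value on the PBS side comes from 1 library that went against its label, so the spread between libraries was measured in the bleomycin arm alone. That library was counted on the shorter gene list, as was only SARAWT bleomycin 3 on the other side. Of the Zfyve9 values with bleomycin only 26.9 CPM is thus from the same list. The longer list of the other bleomycin libraries has a separate row for human ZFYVE9.

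Over both genotypes, with genotype and gene list as covariates, 6 libraries entered: SARAWT PBS 3 and SARATg PBS against 4 bleomycin libraries. SARAWT bleomycin 1 and 2 had no PBS partner on the longer gene list in this fit, so the covariate took up their level. The fitted change of each gene thus came from the 4 libraries of the shorter list, 2 with PBS and 2 with bleomycin. These were 1 library per genotype and treatment, so the spread between PBS libraries of a genotype did not enter the p-values. For Egr1 the change was -3.05, and -3.04 with the shorter list alone. Of 6298 genes tested, 14 were higher with bleomycin (0.222%) and 32 lower (0.508%). The higher genes included Spp1, Cdkn2a, Nes, Isg15, Timp1 and Stmn1, and the lower genes included Cd34, Spry1 and Gas1, the immediate early genes Egr1 and Fos, and the fibre genes Pvalb and Pygm. The median change of all genes was 0.04 (log2). Both PBS libraries of this fit had high mouse Zfyve9 (936 and 1011 CPM). On the same shorter list SARAWT bleomycin 3 had 26.9 CPM and SARATg bleomycin 236 CPM. SARAWT bleomycin 1 and 2 had 16.4 and 16.8 CPM on the longer list. That list counts human ZFYVE9 in its own row (27.9 and 80.5 CPM), so mouse values are not directly comparable between lists. The part of the Zfyve9 difference in the results was not tested. In edgeR 0 genes passed when the library labelled SARAWT PBS 3, SARAWT bleomycin 3 or SARATg bleomycin was left out (746, 740 and 269 at an unadjusted p under 0.05), and 169 passed without SARATg PBS, with the direction of all 46 genes kept in these 4 fits. The fitted PBS and bleomycin libraries did not overlap for any of the 46 genes, so a kept direction was likely in advance. With SARAWT PBS 1 (9 members) in place of PBS 3, 67 genes passed, 16 of the 46 among them.

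Spp1, which codes for the secreted phosphoprotein osteopontin, had 13.3 and 4.87 CPM in SARAWT PBS 3 and SARATg PBS and 1004, 1684, 357 and 584 CPM in SARAWT bleomycin 1, 2, 3 and SARATg bleomycin (log2 change of 5.44 ± 0.59 SE, adjusted p = 0.0268, edgeR). Cdkn2a, which codes for the cell cycle inhibitors p16INK4a and p19ARF, had 3.31 and 0 CPM with PBS and 294, 151, 156 and 113 CPM with bleomycin (5.96 ± 0.81, adjusted p = 0.0274). Nes, the progenitor intermediate filament nestin, had 13.3 and 24.4 CPM with PBS and 289, 117, 199 and 418 CPM with bleomycin (3.95 ± 0.57, adjusted p = 0.0362). Without Myog and fibre-rich cells Nes had 4.22 and 7.14 CPM with PBS and 293, 62.2, 147.0 and 209 CPM with bleomycin (4.88, adjusted p = 0.012). The bleomycin libraries of these genes lie above both PBS libraries, which the choice of named genes required and which, in either direction, held for 40.5% of all genes tested. SARAWT PBS 2, which was not in the fit, had 419 CPM of Spp1 and 104.8 CPM of Cdkn2a in its 2 cells, the latter from 1 UMI, and the 9 cells of SARAWT PBS 1 had 19.0 CPM and 0. Both cells of SARAWT PBS 2 had barcodes that also occurred in another skin library.

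Isg15, an interferon-induced ubiquitin-like modifier, had 16.6 and 19.5 CPM with PBS and 191, 144, 170 and 232 CPM with bleomycin (3.39 ± 0.40, adjusted p = 0.0268), while SARAWT PBS 1 and 2 had 19.0 and 314 CPM. Igfbp3, an insulin-like growth factor binding protein, had 49.7 and 14.6 CPM with PBS and 258, 255, 337 and 376 CPM with bleomycin (3.36 ± 0.46, adjusted p = 0.0274). Tnnt2 had 19.9 and 0 CPM with PBS and 429, 369, 393 and 1466 CPM with bleomycin (5.90 ± 0.86, adjusted p = 0.0362). Tnnt2 was not tested once Myog and fibre-rich cells were left out, where no library exceeded 24.3 CPM. Pclaf, a PCNA-binding replication factor, had 3.31 and 0 CPM with PBS and 49.3, 23.5, 80.8 and 66.7 CPM with bleomycin (5.08 ± 0.84, adjusted p = 0.0458). Hist1h1b, a linker histone of dividing cells, had no UMI with PBS and 11.5, 3.35, 132.7 and 96.0 CPM with bleomycin (adjusted p = 0.0274, edgeR). The mean with bleomycin, 60.9 CPM, was 10.3-fold above a floor of 3 UMIs over both PBS libraries (5.92 CPM), and SARAWT bleomycin 2 lay below that floor. Also higher were Mdk (midkine, a growth factor), Basp1, Stmn1 (a microtubule destabiliser), Timp1 (a metalloproteinase inhibitor), Igfbp4 and Islr, with log2 changes of 1.94 to 3.13.

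Cd34, a sialomucin of quiescent satellite cells, had 106.0 and 307 CPM in SARAWT PBS 3 and SARATg PBS and 36.2, 23.5, 12.8 and 10.3 CPM with bleomycin (log2 change of -4.02 ± 0.47 SE, adjusted p = 0.0268). Cd34 stood at 95.1 CPM (5 UMIs) in the members labelled SARAWT PBS 1, on the PBS side, and had no UMI in SARAWT PBS 2. Pvalb, a calcium buffer of fast fibres, had 129 and 1233 CPM with PBS and 41.1, 3.35, 1.35 and 34.1 CPM with bleomycin (-5.50 ± 0.69, adjusted p = 0.0271). Pygm, muscle glycogen phosphorylase, had 96.1 and 678 CPM with PBS and 49.3, 20.1, 15.5 and 55.5 CPM with bleomycin (-3.24 ± 0.43, adjusted p = 0.0274). The sarcomere-associated genes Xirp2, Abra and Cmya5 and the muscle-expressed gene Mlf1 fell by 3.92, 3.87, 3.42 and 3.30 on the log2 scale. These 6 fibre genes were all highest in SARATg PBS, the library with 10 fibre-rich members, and the share of such cells was not a term of the fit. SARAWT PBS 1 had 0 to 19.0 CPM of each of them and SARAWT PBS 2 had none, within or below the range of the bleomycin libraries.

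**Figure D4:**
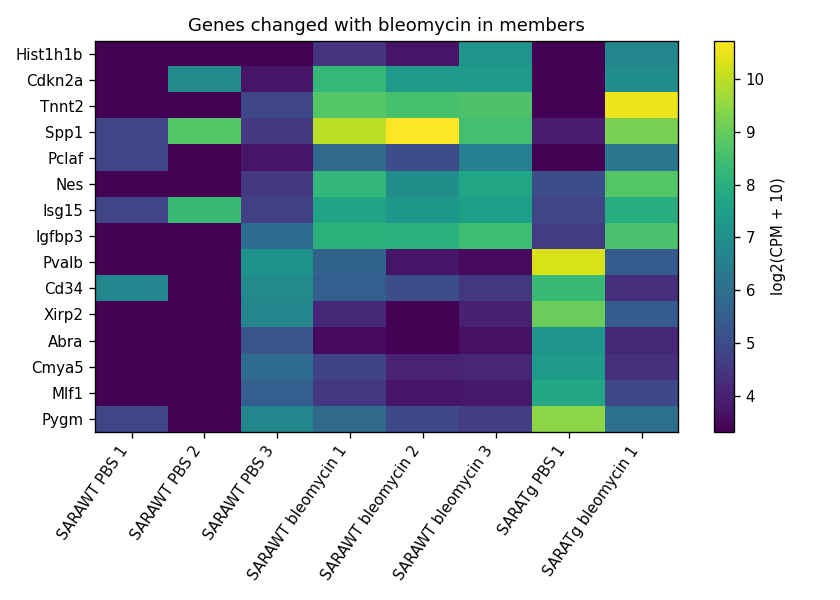
Levels of the 15 named genes called over both genotypes, as log2(CPM + 10), in the members of each of the 8 libraries. The first 8 genes are low in SARAWT PBS 3 and SARATg PBS and higher in the 4 bleomycin libraries, and the last 7 show the opposite; SARAWT PBS 1 and 2 (9 and 2 cells) were not in the fit.

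The gene lists were read against the background of 0.73% of genes called in either direction by edgeR, 18.6% at an unadjusted p under 0.05 and 2.25% called by DESeq2. Of 25 immediate early and heat shock genes tested, 5 fell (Fos, Egr1, Atf3, Nr4a1 and Zfp36) and none rose, with a median of -1.48 and 23 negative values, 18 were at an unadjusted p under 0.05 and DESeq2 called 13 lower. Egr1, a zinc finger transcription factor induced within minutes of a stimulus, had 1789 and 1477 CPM with PBS and 442, 681, 213 and 194 CPM with bleomycin (-3.05 ± 0.35, adjusted p = 0.0268, edgeR), and 1142 and 5135 CPM in SARAWT PBS 1 and 2. On the bleomycin side its fitted change came from SARAWT bleomycin 3 and SARATg bleomycin (213 and 194 CPM), and SARAWT bleomycin 1 and 2 lay higher. Fos had 951 and 1779 CPM with PBS and 514, 664, 116 and 269 CPM with bleomycin (-2.93 ± 0.33, adjusted p = 0.0268, edgeR), but 304 CPM in SARAWT PBS 1, within the bleomycin range, and 5135 CPM in SARAWT PBS 2. The fitted change of Fos likewise came from the bleomycin values of 116 and 269 CPM, not from 514 and 664 CPM. The heat shock genes Hspa8 and Hspa1a did not pass (-0.52 and -0.82). The summed level of the list in members was 8046 to 12944 CPM in the 4 bleomycin libraries and 16533 to 24733 CPM in the 4 PBS libraries, without overlap, beside 12063 CPM in pooled stromal cells and 13892 CPM in pooled leukocytes. Cell dissociation is known to induce these genes, and its part in the result was not tested.

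Of 18 quiescence and Notch genes other than Pax7, 3 fell (Spry1, Cd34 and Gas1) and none rose, with a median of -0.48. In this list 6 genes were at an unadjusted p under 0.05, and DESeq2 called the same 3 genes lower and Cdkn1c higher. Cd34 is also a gene of fibroblasts, with UMIs in 75.1% of Pdgfra stromal cells (562.5 CPM pooled) and in 21.9% of members, and it was highest in SARATg PBS, where the fibroblast sum was 17313 CPM. Of 7 fibroblast markers tested in the same fit 0 passed in edgeR, with 6 negative values, a median of -1.21 and 2 at an unadjusted p under 0.05, and the part of fibroblast RNA in the Cd34 result was not tested. Spry1, an inhibitor of FGF signalling needed for return to quiescence, had 374 and 375 CPM with PBS and 67.4, 148, 58.6 and 90.5 CPM with bleomycin (-2.42 ± 0.41, adjusted p = 0.0475). Gas1, a growth arrest gene, had 182 and 239 CPM with PBS and 98.6, 83.9, 63.3 and 63.5 CPM with bleomycin (-1.77 ± 0.29, adjusted p = 0.0458), and 476 and 1362 CPM in SARAWT PBS 1 and 2. The Notch receptors Notch1 and Notch3 (0.11 and -0.53) and the targets Heyl and Hes1 (0.12 and 0.63) did not pass. Pax7 itself, a gene of the rule, stood at 205 and 73.1 CPM with PBS and at 69.0 to 104 CPM with bleomycin.

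Among 18 proliferation genes 1 rose, Stmn1, and none fell, with 17 positive values and a median of 2.92, or 2.57 with the genes that had no UMI with PBS set to their floor. There 14 genes were at an unadjusted p under 0.05, and DESeq2 called Cdk1, Stmn1 and Top2a higher. Top2a, a topoisomerase of dividing cells, had 6.63 and 0 CPM with PBS and 31.2, 6.71, 94.9 and 120 CPM with bleomycin (4.63 ± 0.86, adjusted p = 0.0594). In the interferon response and class I list, 1 of 23 genes rose (Isg15), with 21 positive values, a median of 1.40 and 12 genes at an unadjusted p under 0.05, and DESeq2 called Bst2 and Isg15. Bst2 (tetherin) had 66.3 and 24.4 CPM with PBS and 459, 372, 143 and 268 CPM with bleomycin (adjusted p = 0.114), while B2m, the light chain of class I molecules, had a value of 0.30 (adjusted p = 0.639). Among 19 commitment and fusion genes Tnnt2 passed in edgeR (median of 1.44, 10 at an unadjusted p under 0.05), while DESeq2 called Cdkn1c, Lrrn1, Mymx and Tnnt2 higher. Myog had 209 and 68.2 CPM with PBS and 335, 1516, 403 and 1045 CPM with bleomycin (2.23 ± 0.90, adjusted p = 0.242). Of 22 myofibre genes 2 fell (Pvalb and Pygm), with a median of -1.92 and 10 at an unadjusted p under 0.05, DESeq2 called Atp2a1 lower as well, and Acta1 did not pass (-1.52). Fibre-rich cells were chosen on the genes of this list, so its values without those cells are not given as a test.

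Of 16 satellite cell markers tested, without the 3 rule genes, 0 passed in edgeR (median of 0.12, 5 at an unadjusted p under 0.05), and DESeq2 called Chrna1 higher and Sdc4 lower. For this and the next lists, the shares over all genes were 18.6% at an unadjusted p under 0.05 and 2.25% by DESeq2. Of 31 genes of TGF-beta, activin and BMP signalling 0 passed in edgeR (median of -0.16, 6 at an unadjusted p under 0.05), while DESeq2 called Fst higher and Zfyve9 lower. Zfyve9 is the gene by which SARAWT PBS 3 went against its genotype label. Of 17 cytokines and chemokines 0 passed (median of -0.57, 5 at an unadjusted p under 0.05), and DESeq2 called Cxcl1 and Cxcl2 lower. Of 6 genes of the neuromuscular junction 0 passed (median of 0.76, 2 at an unadjusted p under 0.05), and DESeq2 called Chrna1. The signalling list includes Smad7, a feedback inhibitor (0.19), and Fst, the activin antagonist follistatin, which had 36.4 and 4.87 CPM with PBS and 42.7, 134, 203 and 169 CPM with bleomycin (3.05 ± 0.70, adjusted p = 0.0882). Of 17 p53 targets, 1 fell (Gdf15, a stress cytokine, -1.91 ± 0.31, adjusted p = 0.0442) and none rose, with a median of 0.44, no other gene of the list at an unadjusted p under 0.05 and no other DESeq2 call, and the classical target Cdkn1a had a value of 0.02 (adjusted p = 0.979). Among 38 extracellular matrix genes 1 rose (Timp1), with a median of 0.54 and 11 at an unadjusted p under 0.05, and DESeq2 called Fn1, Lgals1, Timp1 and Tnc higher. Timp1 had 56.3 and 39.0 CPM with PBS and 325, 456, 345 and 297 CPM with bleomycin (2.68 ± 0.36, adjusted p = 0.0274). The collagen genes Col1a1 and Col1a2 were highest in SARATg PBS (5937 and 5747 CPM), where the fibroblast sum was also highest, and did not pass (-1.78 and -0.69).

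**Figure D5:**
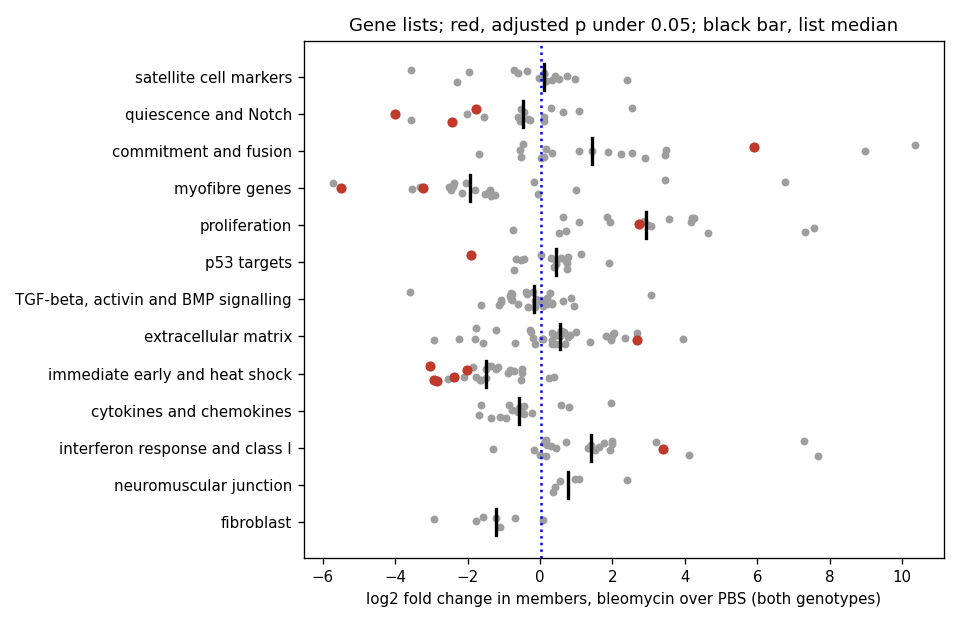
Log2 change with bleomycin over both genotypes for each tested gene of each list other than Pax7, Myf5 and Myod1 (points), with genes past an adjusted p of 0.05 in red, the list median as a black bar and the median of all genes (0.04) as a dotted line. Of the immediate early genes 23 of 25 lie below 0, and 17 of 18 proliferation genes and 21 of 23 interferon genes lie above it; values over 7 belong to genes with no UMI in the PBS libraries of the fit and are no bounds.

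Leaving out Myog and fibre-rich cells gave more calls, not fewer. Of 5695 genes tested, 71 were higher (1.25%) and 108 lower (1.9%). Of the 46 genes called before, 34 could be tested and 30 passed again. Cd34 (-3.98, adjusted p = 0.000704, edgeR), Spp1 (5.35, adjusted p = 0.000905) and Cdkn2a (5.73, adjusted p = 0.00316) were among those, whereas Fos (-2.07, adjusted p = 0.0698), Atf3 (-1.43, adjusted p = 0.0615) and Zfp36 (-1.50, adjusted p = 0.0573) were not. Of the 25 immediate early and heat shock genes 6 were lower here, Egr1 and Nr4a1 again and Jund (adjusted p = 0.0449), Ier3 (0.038), Dusp1 (0.0152) and Myc (0.0207) newly. In the remaining cells Egr1 had 2268 and 749 CPM in SARAWT PBS 3 and SARATg PBS against 459, 995, 237 and 228 CPM with bleomycin. Nr4a1 had 275 and 92.8 CPM against 134, 141, 48.2 and 56.4 CPM, so both genes overlapped between treatments. In SARATg PBS, Fos and Atf3 went from 1779 and 1072 CPM in all members to 471 and 200 CPM. Newly past the threshold in the matrix list were Lgals1 (1.99), Fn1, fibronectin (1.91), Acta2, smooth muscle actin (2.27), Tnc, tenascin-C (2.27) and Col5a2 (1.33), so 6 of 38 matrix genes were higher. The chemokine genes Cxcl1 and Cxcl2 were lower (-1.64 and -1.71), as was Sdc4, a syndecan of satellite cells (-2.03, adjusted p = 0.00664). Lrrn1, of the commitment list, was higher (4.59, adjusted p = 0.015), as were Top2a (4.08, adjusted p = 0.0195), Chrna1 (2.16, adjusted p = 0.0265), the p53 target Phlda3 (2.63, adjusted p = 0.0254) and the interferon gene Oasl2 (adjusted p = 0.0475). Zfyve9 (-3.53, adjusted p = 0.0116), the TGF-beta co-receptor gene Tgfbr3 (-1.68, adjusted p = 0.0254) and the fibroblast marker Gsn (-1.27, adjusted p = 0.0425) were lower. Zfyve9 is the mouse counterpart of the transgene. Over all members Zfyve9 had 1011 and 936 CPM in SARAWT PBS 3 and SARATg PBS, and SARAWT PBS 3 went against its genotype label. Acta2 is also one of the 10 mural cell genes, of which the other 8 beside Tagln stayed at 63.4 CPM or less in sum in each of the 8 libraries.

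The bleomycin effect in members was then set against that in Pdgfra stromal cells of the same SARAWT libraries, by the term for the difference in edgeR with library as a factor. All 6 SARAWT libraries entered, and 93 of 9021 genes passed (1.03%), 76 with a higher effect in members (0.842%) and 17 with a lower one (0.188%). Matrix genes were the list with the most calls, 9 of 39 higher and none lower, with a median of 1.49 (1.32 with genes at 0 in members with PBS set to their floor, where one could be computed) beside 0.32 for all genes. Col1a1 had 57.1, 0 and 113 CPM in members with PBS and 582, 1174 and 199 CPM with bleomycin, while stromal cells had 14022.5, 14136 and 25737.5 CPM with PBS and 8114, 13341.7 and 6755 CPM with bleomycin (difference of 3.97 ± 0.45 SE on the log2 scale, adjusted p = 1.72e-10). Col1a2 (4.26), Sparc (2.84), a collagen-binding matricellular protein, Postn, periostin (4.88), Col3a1 (2.53), Loxl2, a collagen cross-linking enzyme (3.45), Lama2 (2.44), Col5a2 (2.29) and Dcn, decorin (2.23), also had a higher effect in members past the threshold. In SARATg mice, which did not enter, members had 5937 CPM of Col1a1 with PBS and 368 CPM with bleomycin, the opposite order. All 12 fibroblast markers had a positive fitted difference, with a median of 2.84 (2.23 with the 5 genes at 0 in members with PBS left out). Of these, 4 passed (Dcn, Col1a1, Col1a2 and Col3a1, which are also matrix genes). No UMI in members with PBS was found for 5 of the markers, and no floor value could be computed for them. Pi16 and Dpp4 had no UMI in SARAWT members with bleomycin either, so their fitted differences come from stromal cells alone. Pdgfra, Clec3b and Mfap5 had means of 1.45, 1.87 and 3.86 CPM in members with bleomycin, below the floor of 8.24 CPM. Pdgfra is also the gene by which the stromal cells were chosen, so its level there follows from the selection. The sign of these 5 markers is therefore no support. The summed level of the 12 markers in members was 1332, 734 and 2720 CPM in the SARAWT PBS libraries and 4147, 4739 and 4183 CPM with bleomycin. The part of fibroblast RNA in the matrix result was not tested.

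Levels of Col1a1 in members stayed below those of stromal cells in all 6 libraries, at 1174 CPM or less against 6755 CPM or more. Cdkn1c had 0, 0 and 331 CPM in members with PBS and 588, 1446 and 904 CPM with bleomycin, against 53.3, 91.4 and 62.1 CPM and 10.5, 42.2 and 46.6 CPM in stromal cells (difference of 4.17 ± 0.72, adjusted p = 6.23e-05). SARAWT PBS 1 and 2 had 9 and 2 members in this fit, so that 1 UMI was worth 19.0 and 104.8 CPM. Without SARAWT PBS 1, 71 genes passed, without SARAWT PBS 2, 18, without SARAWT PBS 3, 23, and with the libraries of at least 10 members 1 gene, by edgeR.

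No gene passed the threshold between SARATg and SARAWT members. The SARAWT arm included SARAWT PBS 3, whose Zfyve9 level (1011 CPM) was near that of SARATg PBS (936 CPM). With treatment and gene list as covariates, 0 of 6298 genes passed in edgeR (0% in either direction), 268 genes reached an unadjusted p under 0.05, and the DESeq2 count was 7. Here too the fitted change came from the 4 libraries of the shorter gene list, 1 per genotype and treatment. The spread between PBS libraries of a genotype did not enter. Without SARAWT PBS 3, 0 of 8317 genes passed in edgeR, with 106 at an unadjusted p under 0.05, and without SARAWT bleomycin 1, SARAWT bleomycin 2 or SARATg PBS 106, 97 and 70 genes passed. All 22 tested myofibre genes had positive values, with a median of 2.26 beside -0.01 for all genes. Neb, the giant thin-filament protein nebulin, had 600 and 405 CPM in SARATg PBS and bleomycin and 72.9, 187, 97.3 and 100.3 CPM in the SARAWT libraries of the fit (2.47 ± 0.41, adjusted p = 0.495). Actn2, a Z-disc actinin, had 249 and 115 CPM against 43.1, 23.0, 16.8 and 17.5 CPM (2.64 ± 0.32, adjusted p = 0.221, edgeR). Among the lower genes with the smallest p, Sox9 had 102 and 84.9 CPM against 252, 141, 168 and 197 CPM (-1.24 ± 0.29). Hspa1b had 185 and 134 CPM against 736, 592, 999.5 and 333 CPM (-1.62 ± 0.38), and both had an edgeR adjusted p of 0.614. SARATg libraries held 15 of the 22 fibre-rich cells, and with Myog and fibre-rich cells left out 0 genes passed again, with 122 at an unadjusted p under 0.05. In the 4 libraries with at least 20 members, all on the shorter gene list, 53 genes were higher and 3 lower in SARATg members.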

How the data were processed

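Single-cell RNA libraries (10x 3′ v3) were made from sorted GFP+ back skin cells. The deposited files hold UMI counts per gene and cell as the authors made them with Cell Ranger on mm10, on a longer gene list in 4 libraries (version 4.0.0 per the file headers) and a shorter one in the other 4 (3.1.0), and 30406 genes shared by both lists were used. The submitters' processing notes name Cell Ranger 3.0.2 and Seurat 2.3.4. Cells were kept at 200 genes or more and 20% mitochondrial UMIs or less. Pdgfra stromal cells had at least 2 Pdgfra UMIs and none of Ptprc, Pecam1 or the rule genes, and leukocytes had a Ptprc UMI. The members and gene lists were chosen with earlier results of these data known.

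UMIs were summed over the members of each library with at least 10 members (every SARAWT library in the comparison with stromal cells) and tested with edgeR 4.0.16 (quasi-likelihood F test, TMM, filterByExpr) in R 4.3.3, with Benjamini-Hochberg adjustment over all genes tested and a threshold of 0.05. Standard errors are the absolute log2 change divided by the square root of F. DESeq2 1.42.0 was an alternative. Shares and medians were tested by exact permutation of library labels (scipy 1.17.1), and intervals are exact binomial (95%). The bleomycin comparison over both genotypes and the test of UMIs per cell were added after the data were seen. Genes named were up to 8 in each direction with the largest changes past the threshold, a mean of at least 10 CPM and no overlap among the fitted libraries, from the 5 with the smallest p where fewer passed, and called members of the lists. Of the genes this rule named, 2 are not reported here. Other list members given as values were chosen after their values were seen. A gene with no UMI in 1 arm was set against a floor of 3 UMIs over that arm. Nothing states that libraries came from separate mice, so p-values measure at most the spread between the libraries that entered. In the main edgeR fits on members alone, no genotype had more than 1 PBS library, so spread between such libraries was not measured. Scripts were tested on simulated counts. Predicted doublets (scrublet in scanpy 1.11.5) stayed in the main results.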

Additional observations from a re-analysis of the deposited data

Results flagged for a closer look

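The bleomycin effect in members differed from that in Pdgfra stromal cells of the same SARAWT libraries, by the edgeR term for the difference, for 12 genes that stood out in size. The differences below are log2 effects in members minus those in stromal cells, and no explanation was weighed for them.

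Hhip, the hedgehog-interacting protein, had a fitted difference of 13.32, with 0 CPM in members of all 3 PBS libraries and 34.5, 23.5 and 45.1 CPM with bleomycin, while stromal cells had 95.5, 4.81 and 68.7 CPM with PBS and 1.62, 3.72 and 2.33 CPM with bleomycin. Tnnc1, slow troponin C, had 11.21, from 687, 0 and 94.3 CPM in members with bleomycin. Fbn2, a fibrillin, had 9.95, and Fzd2, a Wnt receptor, 8.95. Odr4 had 8.80 and Rapgef2, an exchange factor for small GTPases, 8.66. These 6 genes had no UMI in members of any SARAWT PBS library, so the fitted values are no bounds, and with the PBS arm set to 3 UMIs the differences were 6.52, 4.94, 4.05, 2.69, 2.43 and 2.26 in the order named. The change in members alone against that floor was 2.06, 4.98, 1.58, 1.75, 2.16 and 0.842, and the differences also hold the change in stromal cells. There Fbn2 went from 253, 24.1 and 38.3 CPM with PBS to 21.1, 17.4 and 18.7 CPM with bleomycin. Odr4 and Rapgef2 were both at 34.1 CPM in SARATg PBS members.

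Lrrn1 had a difference of 8.06, with 0, 0 and 9.94 CPM in members with PBS and 46.0, 80.5 and 94.3 CPM with bleomycin. Mfap4, a microfibril protein, had 5.60, from 0, 0 and 3.31 CPM to 59.2, 26.8 and 43.1 CPM in members. Sncg, gamma-synuclein, had -6.69, where stromal cells went from 1.76, 0 and 2.31 CPM to 105.3, 184.9 and 40.8 CPM, against 0, 0 and 13.3 CPM to 8.22, 0 and 2.02 CPM in members. Ankrd29 had -5.13 and Upp1, uridine phosphorylase, -3.51. Apoe, the lipoprotein of cholesterol transport, had -2.76, with 2150, 3458 and 1736 CPM in members with PBS and 248, 540 and 655 CPM with bleomycin.

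Only Hhip and Lrrn1 of the 12 genes passed the threshold in each fit without 1 library. Without SARAWT PBS 3, Sncg had -0.76 (adjusted p = 0.99, edgeR), Upp1 -5.11 (0.285), Mfap4 11.05 (0.243) and Apoe -2.58 (0.0641), and Lrrn1 had 16.20. Without SARAWT PBS 1, Ankrd29 had -2.90 (adjusted p = 0.659, edgeR). In all, 9 genes lost the call without SARAWT PBS 3, 8 without SARAWT PBS 2 and 2 without SARAWT PBS 1, and 3, 1 and 2 lost it without SARAWT bleomycin 1, 2 and 3.

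Human ZFYVE9, the transgene, is listed in 4 libraries, all labelled SARAWT, and stood at 1826 CPM (96 UMIs) in the members labelled SARAWT PBS 1, against 0 in SARAWT PBS 2, 27.9 CPM in SARAWT bleomycin 1 and 80.5 CPM in SARAWT bleomycin 2.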

How the results depend on the processing

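The share of members kept its direction without each library (0.323 to 0.657 percentage points). The Myog share (4.43 to 12.4) and the share with Mki67 or Top2a (4.68 to 6.35) kept theirs without each of the 3 bleomycin libraries, and SARAWT PBS 3 could not be left out. The median UMIs differed by 9445 to 12187.5 without each library (exact p = 0.0286 each), by 11922.2 without the libraries labelled SARAWT PBS 1 and 3 together (exact p = 0.0667, the smallest possible), and by 11403 with a replicate block, where the sign-flip test over 4 pairs cannot go below p = 0.125. SARAWT bleomycin against PBS called 56 genes with DESeq2, 290 without a filter, 43 at a rule sum of 3, 39 without Myog and fibre-rich cells, 22 with libraries of at least 5 members, 0 with gene list as a covariate (297 at an unadjusted p under 0.05, edgeR), 46 over both genotypes, 69 with every library and 0 to 231 without 1 bleomycin library. No value was obtained without SARAWT PBS 3, with at least 20 members or with the replicate block.

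Over both genotypes the 46 calls became 142 with DESeq2, 78 with RLE size factors, 621 without a filter, 416 with at least 20 members (the shorter gene list), 131 at a rule sum of 3, 104 with stricter cells, 179 without predicted doublets, 179 without Myog and fibre-rich cells, 322 with at least 5 members (527 also without those cells), 391 with a replicate block, 428 with a replicate block and at least 5 members, 340 without covariates, 0 on the longer gene list alone (846 at an unadjusted p under 0.05, edgeR) and 0 to 620 without 1 library (539 without SARAWT bleomycin 2, 620 without SARAWT bleomycin 1). On the longer list Pvalb (6.002) and Pygm (0.98) were reversed, and 31 of 36 tested genes kept their direction. Without the shared barcodes 60 genes passed in edgeR, and 30 of the 46 calls were kept. Named genes kept their direction in 336 of 338 values, which their required lack of overlap among the fitted libraries made likely.

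SARATg against SARAWT called 7 genes with DESeq2, 137 without a filter, 56 with at least 20 members, 10 at a rule sum of 3, 28 with a replicate block in place of the gene list covariate and 0 to 106 without 1 library. The difference from stromal cells was called for 34 genes by DESeq2, 18 with at least 5 members, 1 with at least 10 and 18 to 83 without 1 library, and Sncg was reversed (0.30) without Myog and fibre-rich cells. The cause of these changes was not tested. Depth limits SARAWT PBS 1 and 2 most, with 9 and 2 members. Deviations of SARAWT libraries with the same replicate number had correlations of -0.104, 0.103 and 0.207, so the numbers were not taken as pairs.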
